A study of Bos taurus with 21 samples.

Results

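Of 28054 bovine transcript identifiers measured in endometrium, the lining of the uterus, 42 were lower on day 16 than on day 13 in pregnant heifers while their mean stayed level in cyclic heifers. The members were chosen on the level L, which is log2(CPM + 1), where CPM is the read count of a transcript scaled to 1e6 counts of its library. A member had a mean of at least 5 CPM over 20 heifers, which 13646 identifiers had. Its mean L in pregnant heifers at day 16 minus day 13 was at most -0.7, with every day 16 heifer below every day 13 heifer. In cyclic heifers the mean L of the 2 days differed by no more than 0.3 in either direction. 1 further identifier was left out by name, and it did not meet these limits either.

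Each of 4 groups, cyclic or pregnant and slaughtered on day 13 or on day 16, had 5 heifers. All were cross-bred beef heifers, mostly of Charolais and Limousin descent, whose cycles had been synchronised with a vaginal progesterone device and an analogue of prostaglandin F2α, so cyclic controls carried these treatments too. Pregnant heifers had been inseminated and were sampled only where a conceptus of the proper stage was flushed from the uterus, while cyclic heifers had not been inseminated. Strips of mostly intercaruncular endometrium were taken after slaughter and flushing from the uterine horn beside the corpus luteum, and no age was given.

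After ovulation the corpus luteum secretes progesterone, which prepares the endometrial glands and lining to feed and later receive the conceptus. In cattle the trophectoderm of the elongating conceptus secretes interferon tau, which acts on the endometrium and keeps the corpus luteum from regressing. Day 13 lies near the start of elongation and day 16 near the maternal recognition of pregnancy. No gene names accompany the identifiers, and 0 of 28054 matched the reference gene table. The functions of the members, the lists of genes drawn up for this tissue and the marker genes of its cell types were therefore not examined, and 4 identifiers are named. The labelled tissue was not checked against marker genes for the same reason.

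Library totals ranged from 1256870 counts in pregnant day 16 heifer 1 to 3764342 in pregnant day 13 heifer 9. A floor of 3 counts was worth 0.797 CPM in the deepest and 2.39 CPM in the shallowest of the 20 heifers. Each member had at least 3 counts in every heifer. Pregnant day 16 heifer 12 had 2 libraries, and the rule used library 1 alone. Of 210 pairs of libraries, the closest was library 2 of heifer 12 and the one labelled heifer 19. The chi-square between them came to 2.0 per degree of freedom, over transcripts whose counts in both summed to 20 or more, against 3.30 in the next closest pair. The 2 libraries labelled heifer 12 had 6.85 and ranked 51 of the 210. Which animal library 2 came from could not be settled from the labels, so the labels of heifers 12 and 19 are in doubt wherever pregnant day 16 is given as 5 heifers. Without heifer 12 the rule found 58 transcripts, 39 of them among the 42, and without heifer 19 it found 74, with all 42 among them. Leaving out a heifer can only ease the demand of no overlap, and heifer 19 had the highest mean L over the members in its group. That all 42 were kept is therefore no support.

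The rule separated the members from a larger group that fell in both states. In pregnant heifers 393 abundant transcripts had a change of at most -0.7, and 179 of them had no overlap between the days. Of these 179, 134 were also lower by more than 0.3 in cyclic heifers, 3 were higher by more than 0.3, and 42 lay between and are the members. Over the 179 the median change in cyclic heifers was -0.73, with quartiles of -1.37 and -0.30. The 3 members nearest the limit of the fall had -0.71, -0.71 and -0.71, and the 3 nearest transcripts outside had -0.69, -0.68 and -0.68. At the lower limit of the cyclic change the nearest members had -0.30, -0.29 and -0.29 and the nearest transcripts outside had -0.31, -0.31 and -0.31. No gap stood at these 2 limits. At the upper limit of the cyclic change the nearest members had 0.29, 0.28 and 0.26 and the 3 transcripts outside had 0.36, 0.51 and 0.60. At the limit of abundance the nearest members had 6.39, 7.35 and 8.11 CPM and the nearest transcripts outside had 4.71, 3.80 and 3.04 CPM, so values were sparser at these limits.

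**Figure D1:**
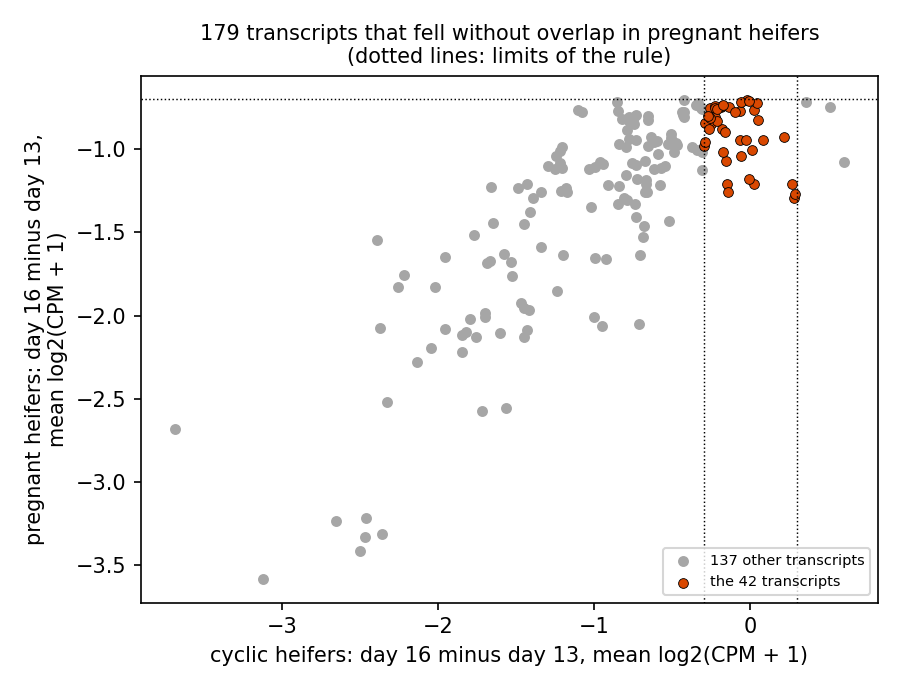
Change of mean log2(CPM + 1) from day 13 to day 16 in cyclic heifers (horizontal) and pregnant heifers (vertical), 5 against 5 heifers in each, for the 179 transcripts that fell without overlap in pregnant heifers. The 42 members (orange) lie at the right edge of a cloud whose median cyclic change was -0.73.

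These values chose the members and are given as a description. The change in pregnant heifers ranged from -1.29 to -0.71 with a median of -0.85, against a median of -0.00029 over all abundant transcripts. The change in cyclic heifers ranged from -0.30 to 0.29 with a median of -0.15, so most members lay on the lower side of 0 there as well. In bulk tissue, fewer cells of a type and less RNA per cell cannot be told apart. The distance in L between the lowest pregnant day 13 heifer and the highest pregnant day 16 heifer was 0.03 to 0.52, with a median of 0.18, and was under 0.1 in 8 of the 42. The separation of the pregnant groups was therefore narrow for these 8.

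The members were of ordinary abundance. Their mean over 20 heifers ranged from 6.39 to 282 CPM with a median of 27.4 CPM, against 34.0 CPM over all abundant transcripts. Their summed share of the library was 0.351% ± 0.0326 (SD, n = 5) in the pregnant group of day 13 and 0.188% ± 0.0215 (n = 5) in that of day 16. In cyclic heifers their share was 0.265% ± 0.0294 (n = 5) at day 13 and 0.244% ± 0.0404 (n = 5) at day 16. The rule sets the order of the pregnant shares, so they are a description too.

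Averaged over the members, the level placed pregnant heifers on either side of the cyclic ones. The rule fixes the order of the 2 pregnant groups and keeps the cyclic means of the 2 days close. The place of the cyclic heifers between them follows from this and the averaged difference near 0 given below, so these values are a description. The mean L over the 42 was 5.40, 5.51, 5.56, 5.60 and 5.68 in pregnant day 13 heifers 20, 11, 14, 9 and 2. It was 4.43, 4.49, 4.71, 4.74 and 4.84 in pregnant day 16 heifers 1, 6, 4, 12 and 19. Cyclic heifers lay between these, with 5.03, 5.11, 5.19, 5.21 and 5.27 in day 13 heifers 8, 13, 18, 5 and 10. Cyclic day 16 heifers 16, 7, 17, 15 and 3 had 4.89, 4.91, 5.03, 5.21 and 5.29. The group means were 5.55 ± 0.10 (SD, n = 5), 4.64 ± 0.17 (n = 5), 5.16 ± 0.09 (n = 5) and 5.07 ± 0.18 (n = 5) in the same order. The cyclic groups overlapped each other, and the lowest cyclic day 16 heifer, at 4.89, lay close to the highest pregnant day 16 heifer, at 4.84.

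**Figure D2:**
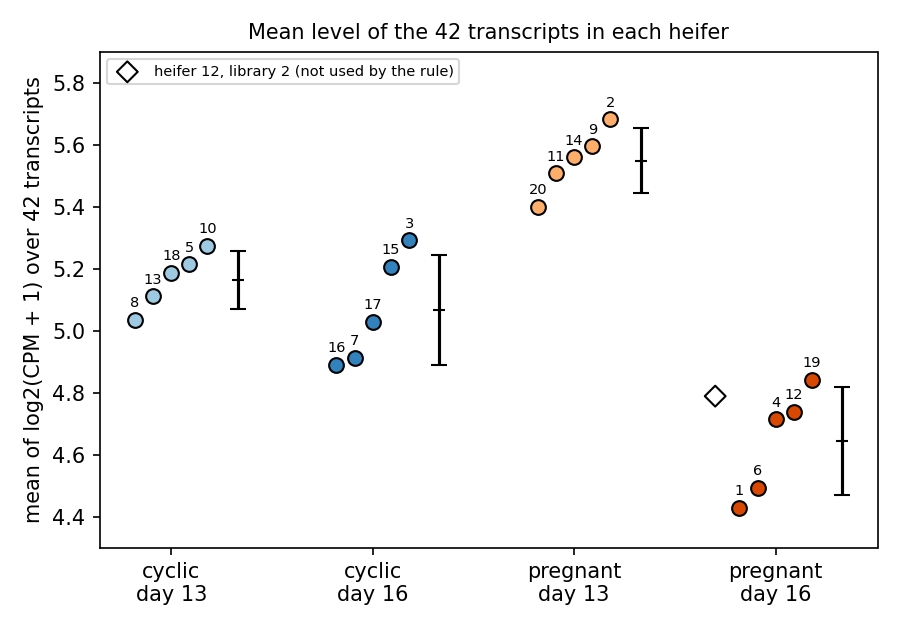
Mean of log2(CPM + 1) over the 42 transcripts in each heifer (points, with heifer numbers) by group, with bars for the mean ± SD of 5 heifers. The rule sets the order of the 2 pregnant groups. The 5 pregnant day 13 heifers sit between 5.40 and 5.68, above the cyclic heifers, and the 5 pregnant day 16 heifers sit between 4.43 and 4.84, below them, while the diamond marks library 2 of heifer 12, at 4.79.

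The deposited files carry a code of unstated meaning, lettered here A to D. In pregnant heifers the rule makes the change negative within any code that holds both days, so only its size is given. The mean L over the members at day 16 minus day 13 was -0.95 in A (2 and 2 heifers), -0.70 in B (1 at day 16, 2 at day 13) and -0.99 in C (2 at day 16, 1 at day 13). In cyclic heifers it was -0.07 in A (1 and 1) and 0.04 in C (3 at day 16, 1 at day 13), and B and D held cyclic heifers of 1 day only. Deeper libraries tended to have a higher level within their group. Deviations of the members' mean L and of log2 total counts from their group means had a Pearson correlation of 0.59 over 20 heifers, as a description. The shallowest library, heifer 1, had the lowest mean L of all, whereas heifer 2, the shallowest of pregnant day 13 with 1677742 counts, had the highest. The part of depth in the result was not tested.

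The direct test of the difference between the states was passed by no member. This difference, the day change in pregnant heifers less that in cyclic heifers, is fixed in sign by the rule, and it is given for its size. Its median over the 42 was -0.70 on the log2 scale in edgeR, and the 95% intervals of the single members extended 0.38 to 1.25 on either side. In edgeR 0 of 42 had an adjusted p under 0.05 and 30 had an unadjusted p under 0.05, as did 1644 of all 14826. DESeq2 called 0 of 42. Over all 14826 transcripts tested, 0.479% were called. Day 16 against day 13 in pregnant heifers, which the rule used, was called in 32 of 42, all lower, where 3.95% of all transcripts tested were called in either direction and 2.10% as lower. DESeq2 called 39 of 42, and 800 of all 14826. In edgeR 20, 18 and 21 of the 42 were called without pregnant heifers 1, 6 and 9, where 433 of 14981, 368 of 14984 and 463 of 14966 transcripts tested were called. In cyclic heifers the rule held the mean change within 0.3 of 0, so few calls could arise and their number is no test. There 0 of 42 were called (edgeR; 1 with an unadjusted p under 0.05, against 2243 of all 14826; DESeq2 0), where 1.73% of all transcripts were called. The 95% interval of the cyclic change reached -0.7 or lower in 13 of the 42 and lay wholly within 0.3 of 0 in 0 of them. These data do not show for any single member that its change in cyclic heifers was absent or that it differed from the change in pregnant heifers.

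Individual cyclic heifers often reached the levels of either pregnant group. Of 210 values of the members in cyclic day 13 heifers, 50.5% were at or above the lowest pregnant day 13 heifer and 30.0% were at or below the highest pregnant day 16 heifer. In cyclic day 16 heifers the shares were 31.9% and 39.0% of 210. Cyclic day 13 heifer 10 was at the pregnant day 13 level for 30 of the 42 members, the most of any cyclic heifer. Cyclic day 16 heifer 16 was at the pregnant day 16 level for 26, also the most, followed by heifer 7 with 23. The median spread within the cyclic groups was close to that of other transcripts. The members' median SD of L was 0.298 in cyclic day 13 and 0.275 in cyclic day 16, against 0.269 and 0.250 over all abundant transcripts. In cyclic day 13 the upper quartile was wider, at 0.521 against 0.380, whereas in cyclic day 16 it was 0.360 against 0.356. Members ranked 1, 2, 4, 6 and 7 by the fall had SDs from 0.74 to 0.95 in cyclic day 13, and those ranked 3 and 5 had 0.49 and 0.53. The range over the 10 cyclic heifers exceeded that over the 10 pregnant heifers, which the rule widens, in 7 of the 42. Apart from the SDs, these shares and counts have no counterpart over all abundant transcripts here, so they describe the members only.

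**Figure D3:**
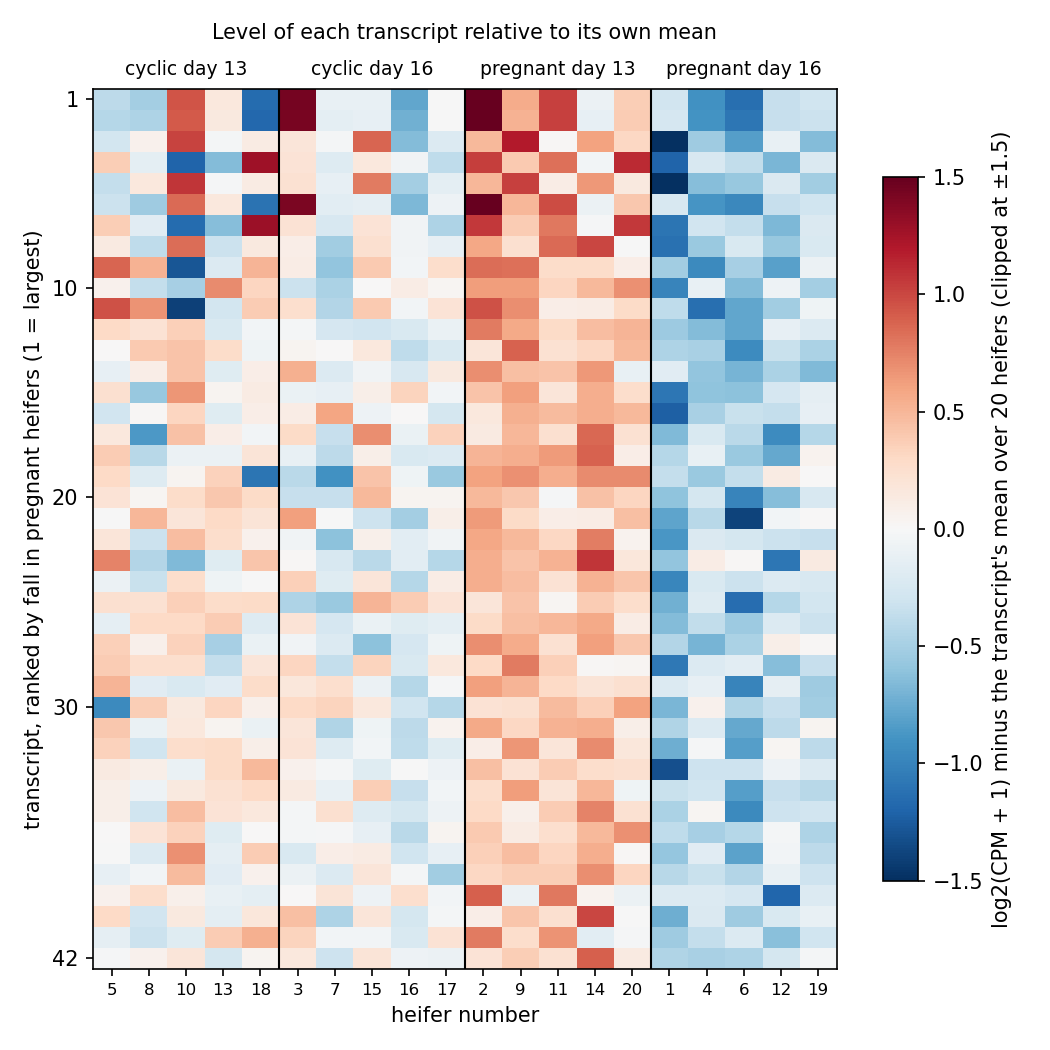
Each row is 1 of the 42 transcripts, ranked by its fall in pregnant heifers, and each column 1 of 20 heifers, coloured by log2(CPM + 1) minus the transcript's own mean. Pregnant day 13 columns are mostly red and pregnant day 16 columns mostly blue, while the cyclic columns are mixed, and rows 1, 2 and 6 carry nearly the same pattern. The rule sets the order of the pregnant columns.

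Whether pregnant heifers stood higher than cyclic ones at day 13 or lower at day 16 is a separate question. The difference between pregnant and cyclic heifers averaged over both days is orthogonal to both day changes, so with equal spread the rule does not set it. Averaged in this way, the members showed no common direction. Its median over the members was -0.02 in L, with a range from -0.29 to 0.42, against a median of -0.03 over all abundant transcripts. Of the 42, 17 were on the higher and 25 on the lower side in pregnant heifers, where 40.0% and 60.0% of all abundant transcripts were. In edgeR 0 of 42 were called for this average (1 with an unadjusted p under 0.05, against 656 of all 14826; DESeq2 0), where 0.621% of all transcripts tested were called. The fitted median was -0.01. The 95% intervals of the single members extended 0.19 to 0.63 on either side. A call also needed the adjustment over all transcripts, so differences within these intervals and somewhat larger ones could have been missed. ENSBTAT00000020193, with 0.40 and an interval of 0.37 on either side, was not called.

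With an average near 0, the difference of the members was divided between the 2 days. At day 13 the mean L of pregnant heifers minus that of cyclic heifers had a median of 0.35 over the members, from -0.02 to 0.89, and was above 0 in 41 of 42, as in 47.5% of all abundant transcripts. At day 16 it had a median of -0.45, from -0.77 to 0.07, and was below 0 in 41 of 42, as in 55.5% of all abundant transcripts. Pregnant day 13 was the highest and pregnant day 16 the lowest of the 4 group means in 40 of the 42, as in 12.9% of all abundant transcripts. These counts follow from the day changes that chose the members together with the average near 0, and they are no independent support. The heifers of the groups mostly overlapped. All pregnant day 13 heifers lay above all cyclic day 13 heifers in 1 of 42, where 0.264% of abundant transcripts did, and all pregnant day 16 heifers lay below all cyclic day 16 heifers in 2 of 42, where 0.674% did.

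**Figure D4:**
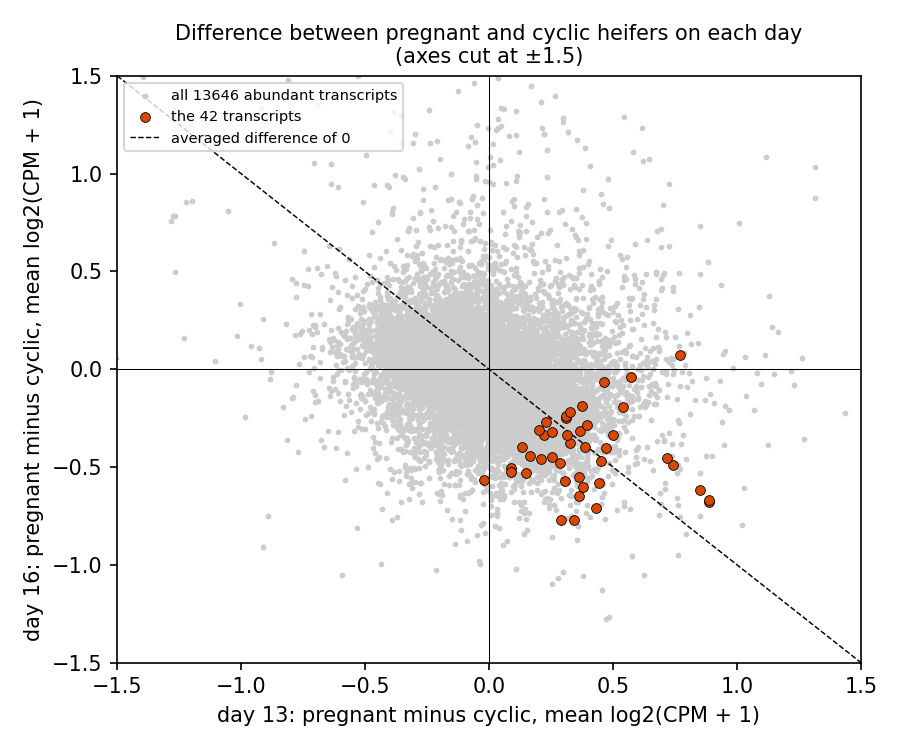
Difference in mean log2(CPM + 1) between 5 pregnant and 5 cyclic heifers at day 13 (horizontal) and day 16 (vertical) for the 42 transcripts (orange) and all 13646 abundant transcripts (grey), with the dashed line where the average of both days is 0. The members lie along the dashed line, with medians of 0.35 at day 13 and -0.45 at day 16.

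Neither day by itself gave a member that passed the test. The rule partly sets both differences, so the members with an unadjusted p under 0.05 below are no independent support. Pregnancy at day 13 was called in 0 of 42 by edgeR (11 with an unadjusted p under 0.05, against 971 of all 14826) and in 0 by DESeq2, and in 0% of all transcripts tested by edgeR. Pregnancy at day 16 was called in 0 of 42 by edgeR (12 with an unadjusted p under 0.05, against 1002 of all 14826) and in 0 by DESeq2, where 0.958% of all transcripts tested were called. Within code A the members' mean difference between pregnant and cyclic heifers was 0.26 at day 13 (2 and 1 heifers) and -0.62 at day 16 (2 and 1). Within code B it was 0.37 at day 13 (2 and 3). Within code C it was 0.56 at day 13 (1 and 1) and -0.47 at day 16 (2 and 3). These values reuse the same heifers and a direction partly set by the rule, so they describe the members and are no separate support.

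The 4 named members are the ends of the averaged difference, 2 on the higher side and 2 on the lower side in pregnant heifers. Its sign in them was chosen in this way, and the alternative fits share most heifers, so a kept sign is no support. ENSBTAT00000020193, at a mean of 15.6 CPM, was the 1 member whose pregnant day 13 heifers stood above all cyclic heifers of both days, as 0.0513% of abundant transcripts did. It had 21.8, 22.6, 24.2, 24.4 and 24.5 CPM in the pregnant day 13 heifers, the tightest group of values in this transcript. In pregnant day 16 heifers it had 9.64, 11.1, 11.2, 14.7 and 16.0 CPM. These lay inside the range of the cyclic heifers. The cyclic values were 6.33, 12.6, 15, 18.1 and 18.9 CPM on day 13, and 7.29, 9.59, 10.8, 13.99 and 19.9 CPM on day 16. Its fitted log2 difference between pregnant and cyclic heifers was 0.75 (SE 0.25) at day 13 and 0.06 (SE 0.26) at day 16. The average of both days was 0.40 (SE 0.18, edgeR adjusted p = 1.00), higher than in cyclic heifers under all 27 alternatives and past the threshold in none of them.

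ENSBTAT00000020331, at 187 CPM the third most abundant member, showed the same placing with more overlap. Pregnant day 13 heifers had 197, 236, 253, 256 and 370 CPM, and pregnant day 16 heifers had 82.0, 116, 178, 190 and 193 CPM. The 2 groups nearly met, at 197 CPM in heifer 20 and 193 CPM in heifer 19. The cyclic values were 111, 129, 155, 234 and 295 CPM on day 13, and 130, 132, 149, 158 and 177 CPM on day 16. Cyclic day 13 heifers 18 and 5 reached the range of the pregnant day 13 heifers, and the cyclic day 16 heifers lay inside the range of the pregnant day 16 ones. Its fitted difference was 0.53 (SE 0.26) at day 13 and 0.06 (SE 0.26) at day 16, with an average of 0.30 (SE 0.18, edgeR adjusted p = 1.00).

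In ENSBTAT00000055937 the difference stood at day 16 instead. This transcript of 10.3 mean CPM had nearly equal levels in all day 13 heifers, with 10.1, 11.3, 12.1, 13.19 and 13.55 CPM in pregnant and 11.7, 11.8, 12.1, 12.3 and 12.9 CPM in cyclic ones. At day 16 it had 3.90, 5.57, 7.10, 7.98 and 8.53 CPM in pregnant heifers. Cyclic day 16 heifers fell into a low pair, heifers 7 and 3 with 6.37 and 6.89 CPM, and 3 heifers at 11.5 to 14.49 CPM. The low pair overlapped with the pregnant heifers. Counts were small here, from 7 to 51 per heifer. The fitted difference was 0.01 (SE 0.22) at day 13 and -0.60 (SE 0.24) at day 16, with an average of -0.29 (SE 0.16, edgeR adjusted p = 1.00).

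ENSBTAT00000025331, at a mean of 16.5 CPM, also lay lower at day 16. It had 3.98, 9.27, 9.75, 10.1 and 12.8 CPM in pregnant day 16 heifers and 16.18, 16.64, 21.5, 24.0 and 31.6 CPM in pregnant day 13 heifers. The lowest value, in heifer 1, rests on 5 counts. The cyclic values were 11.4, 14.7, 16.39, 16.9 and 32.5 CPM on day 13, and 10.2, 13.4, 13.7, 17.7 and 26.5 CPM on day 16. All but 1 of the pregnant day 16 heifers lay below every cyclic day 16 heifer, while both day 13 groups overlapped widely. The fitted difference was 0.29 (SE 0.28) at day 13 and -0.75 (SE 0.31) at day 16, with an average of -0.23 (SE 0.21, edgeR adjusted p = 1.00).

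**Figure D5:**
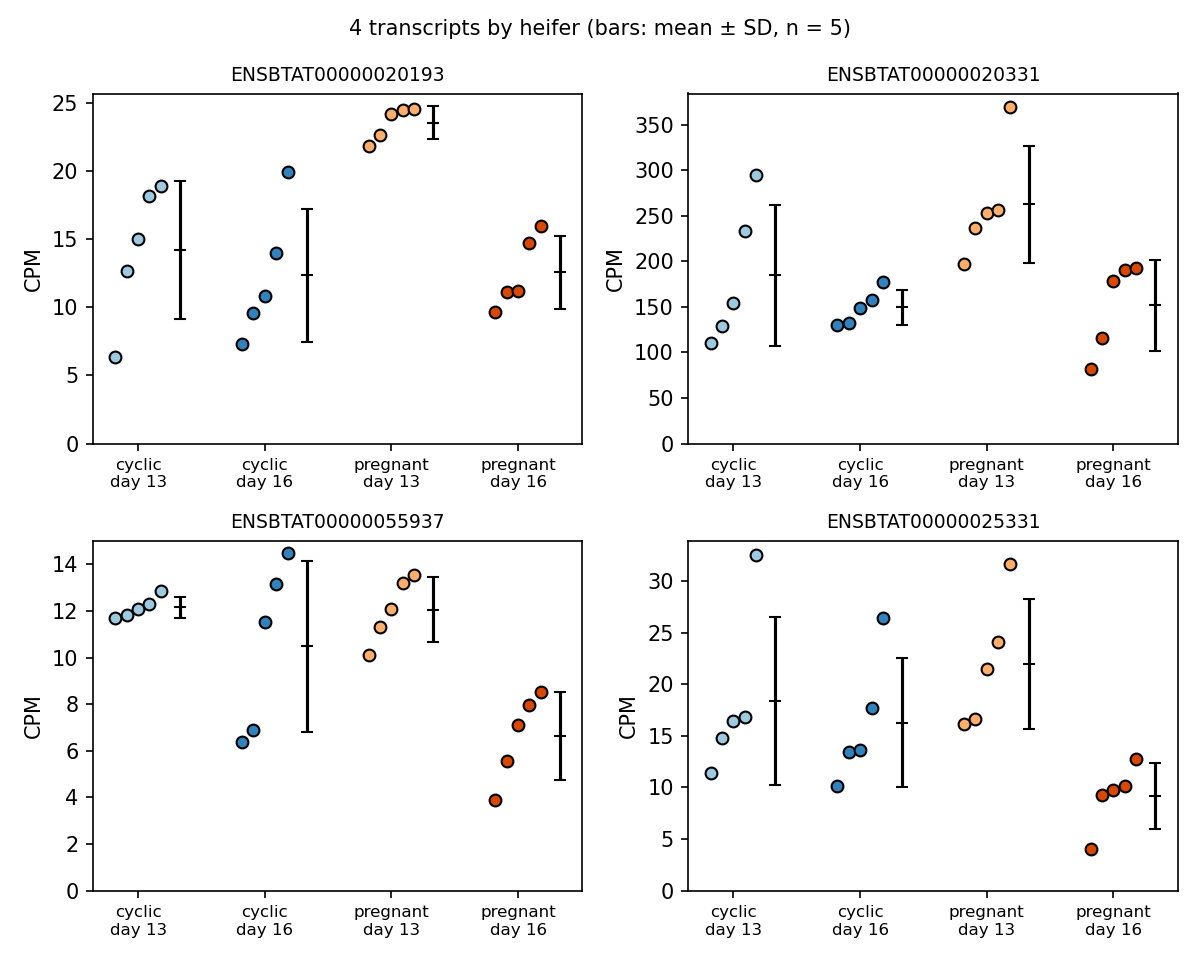
CPM of the 4 named transcripts in each heifer (points) by group, with bars for the mean ± SD of 5 heifers and axes that start at 0. In the upper 2 panels the pregnant day 13 mean is the highest, in the lower 2 the pregnant day 16 mean is the lowest, and cyclic heifers overlap with a pregnant group in each panel. In ENSBTAT00000025331 the pregnant day 13 mean is the highest as well. The panels were picked as the ends of the averaged difference.

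Several members carried nearly the same counts, so the 42 are fewer separate signals than transcripts. No member had counts identical to another identifier in every heifer. However, 8 pairs kept so constant a ratio that the chi-square of their counts over 20 heifers was 0.04 to 0.28 per degree of freedom, where counts of separate reads would give about 1 by sampling alone, and the closest other pair had 0.39. The limit of 0.3 was chosen after the values were seen. The 8 pairs linked 13 members into 6 groups, which leaves 35 signals at this limit. The closest other pair, at 0.39, was also under 1, so the number of distinct signals may be lower. How the counting shared reads between transcripts of a gene or between similar genes is not given in the sources used here. ENSBTAT00000025331 and ENSBTAT00000055937 each belong to such a group, whereas ENSBTAT00000020193 and ENSBTAT00000020331 do not.

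The largest falls came from these groups. Members ranked 1, 2 and 6 by the fall formed 1 group of 3 with changes from -1.29 to -1.21, and the other 4 of the first 7 formed 2 groups of 2. The most abundant of the 3 had 111, 157, 167, 232 and 340 CPM in pregnant day 13 heifers 14, 20, 9, 11 and 2, and 59.9, 63.4, 92.6, 95.8 and 99.5 CPM in pregnant day 16 heifers 6, 4, 12, 19 and 1. Cyclic heifers spread over both ranges. Their values were 54.0, 81.0, 94.3, 132 and 214 CPM on day 13, and 73.3, 105, 107, 112 and 316 CPM on day 16, the highest in heifer 3. The level mean in cyclic heifers thus stood over values from below the highest pregnant day 16 heifer to near or above the second highest pregnant day 13 heifer.

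The groups of near-copies differed from one another in some heifers and were alike in others. One pair, ranked 4 and 7 by the fall, had 18.2 CPM in its more abundant transcript in cyclic day 13 heifer 10, where the group of 3 had 214 CPM. In cyclic day 13 heifer 18 the order was turned, with 105 CPM for the pair and 54.0 CPM for the group of 3. In contrast, the group of 3 and the pair that holds ENSBTAT00000025331 both had their highest cyclic day 13 value in heifer 10, at 214 and 32.5 CPM. Over all members, deviations of L from the group means, which the rule did not set apart from its demand of no overlap, were only weakly related. The median Pearson correlation over 861 pairs of members and 20 heifers was 0.17, and 69.9% of the pairs were above 0. It was 0.19 over 595 pairs with 1 member per group of near-copies, and 0.0035 over 93099835 pairs of abundant transcripts, of which 50.35% were above 0. All pairs share the same 20 libraries and their depth, so this is a description, and it does not show the members to be 1 unit.

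Library 2 of heifer 12 was the one library the rule did not use. In it 40 of the 42 members lay below every pregnant day 13 heifer, where 15% of all abundant transcripts did. The members' mean L was 4.79, within the range of the pregnant day 16 heifers, and 31 of 42 lay within that range member by member, where 82.3% of abundant transcripts did. Of the rest, 10 lay above the pregnant day 16 heifers and 1 below, where 9.56% and 8.12% of abundant transcripts did. Over the members its mean absolute difference in L was 0.17 from heifer 19 and 0.33 to 0.40 from the other 4 pregnant day 16 heifers, its own library 1 included at 0.35. By its label it is no further animal, and it was closest to a library that the rule did use.

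The heifers at the edges of the pregnant groups were not always the same ones. Heifers 11 and 20 were each the lowest of pregnant day 13 in 12 of 42 members, heifer 14 in 8, heifer 2 in 6 and heifer 9 in 4. In pregnant day 16, heifers 12 and 19 were each the highest in 14 of 42, heifer 4 in 7, heifer 1 in 4 and heifer 6 in 3. Heifers 6 and 1 were the lowest in 16 and 15 of 42. Members varied more within pregnant day 16 than abundant transcripts did, with a median SD of L of 0.34 against 0.27. In pregnant day 13 the order was turned, with 0.28 against 0.31, and the rule's demand of no overlap acts on both values.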

How the data were processed

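Endometrial RNA of 20 heifers was sequenced as single-read Illumina libraries, per the labels' protocols. The authors deposited raw read counts per Ensembl bovine transcript for each of 21 libraries. The submitters' processing notes list CASAVA, with neither version nor role. For aligner, counter, build and annotation the entry is: not given in the sources used here. The same holds for whether counting used strand, and overlapping transcripts and paralogues are therefore uncertain.

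The members, lists and tests were chosen with earlier results of these data known. CPM and L used file totals and a pseudocount of 1. Tests were run on all transcripts passing filterByExpr (minimum count 10, minimum total 15; 14826 transcripts) with edgeR 4.0.16 in R 4.3.3: TMM factors, robust quasi-likelihood fit of 4 group means, 6 contrasts, Benjamini-Hochberg adjustment over all transcripts, called under 0.05. SEs derive from the fold change and F statistic, and 95% intervals from the SE and the test's degrees of freedom. The fit was tested on simulated data for the averaged pregnancy difference alone, with changes larger than those of the members. It therefore does not tell how often differences as small as theirs would be called. Heifer 12 was represented by library 1. Alternatives were DESeq2 1.42.0, other scalings and filters, other uses of heifer 12, the file code in the model and leaving out each heifer. Without gene symbols, the rule for names took the 2 members with the highest and the 2 with the lowest averaged pregnancy difference. The 95% intervals come from the edgeR fit and take in variation between heifers as well as counting error, while the floor of 3 counts concerns counting alone. Reads counted without molecular identifiers can repeat a molecule.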

Additional observations from a re-analysis of the deposited data

Results flagged for a closer look

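A gap test for single distant heifers was run on 20 sets of 5 values, the 4 named members and the members' mean level in each of 4 groups, and 1 was found, where chance gives about 1 in 20 sets. Cyclic day 13 heifer 10 had 32.5 CPM of ENSBTAT00000025331, against 11.4 to 16.9 CPM in the other 4. It was also the cyclic heifer at the pregnant day 13 level for the most members, 30 of 42, a count with no share over all abundant transcripts beside it.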

How the results depend on the processing

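No paired analysis was possible because the groups share no heifer numbers. The members found numbered 47 with the libraries of heifer 12 summed (39 shared with the 42) and 54 with library 2 alone (37 shared), 36 with TMM scaling (36 shared), under which pregnant day 16 heifer 6 had the lowest factor, 0.936, and 32 to 76 with 1 heifer left out. The highest numbers, 76, 74 and 65, came without pregnant heifers 20, 19 and 4. Leaving out any pregnant heifer leaves fewer that have to be free of overlap, but without pregnant heifers 1 and 6 the numbers were 43 and 42. Over all transcripts, the averaged pregnancy difference had 92 calls and 53 with the file code in the model. Pregnancy at day 13 had 0 calls and 3 in DESeq2. The difference of the day changes had 71 calls and 125 in DESeq2. The day change in cyclic heifers had 257 calls, 440 in DESeq2, 118 with the file code, and 140 to 370 with 1 heifer left out, with 140, 152 and 167 without cyclic heifers 3, 8 and 17. The day change in pregnant heifers had 586 calls and 368 to 627 with 1 heifer left out, lowest without heifer 6. The cause of these shifts was not tested. No member was called for pregnancy at either day, for their average, for the day change in cyclic heifers or for the difference of the day changes under any of the 27 alternatives. The rule itself held the day change in cyclic heifers near 0. Their median averaged difference stayed between -0.05 and 0.03. With 5 heifers a group, differences within the intervals given could be missed, and so could somewhat larger ones, because calls were adjusted over all transcripts.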
